A study of Mus musculus with 48 samples.

Results

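The deletion of the cannabinoid receptor CB1 from glutamatergic neurons was compared with its deletion from GABAergic neurons in hippocampal Cornu Ammonis tissue of mice, gene by gene. All 48 libraries of the series entered this comparison, 1 per animal, in 8 groups. Glu-CB1-KO mice (nex-cre x CB1f/f) lack CB1 where Cre has been active under *nex1* regulatory elements, which covers glutamatergic neurons of the forebrain. GABA-CB1-KO mice (dlx5/6-cre x CB1f/f) lack it where the *dlx5/6* elements have driven Cre, which covers forebrain GABAergic neurons. The labels call the controls of each line CB1-WT, and the sources used here do not say whether these mice carry floxed alleles or Cre. All mice were male by the study's methods and 8 weeks old by their labels, where the methods give ages of 8 weeks upward. They were taken either in the basal state, from the home cage, or an hour after an exposure of 5 min to an open field arena. The basal state is covered by 5 CB1-WT and 7 Glu-CB1-KO libraries of the Glu-CB1 line and by 6 of each genotype of the GABA-CB1 line. For the open field the labels list 5 controls and 7 Glu-CB1-KO animals, and 7 controls and 5 GABA-CB1-KO animals. The study's text gives the sizes of the GABA-CB1 open field groups the other way round, and the labels were followed here, with *Cnr1* lower in all libraries labelled KO than in all labelled CB1-WT.

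CB1 is a presynaptic receptor that lowers transmitter release when it binds endocannabinoids, lipid messengers made in the postsynaptic cell. In the hippocampus it is dense on the terminals of cholecystokinin interneurons and sparser on those of pyramidal cells, so that its loss frees either inhibitory or excitatory synapses from this brake. The comparison asked which transcripts respond differently to these deletions. For each gene, the KO effect of a line is the log2 difference between KO and CB1-WT libraries, averaged over the basal state and open field exposure. The line contrast is the KO effect of the Glu-CB1 line minus that of the GABA-CB1 line, so a positive value means higher in Glu-CB1-KO relative to GABA-CB1-KO mice, each against its own controls.

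The libraries held 25892654 to 34091080 reads assigned to genes (median 30975561), and levels are given as CPM (counts scaled to 1e6 reads) after TMM scaling. Residual variation around the group means was not even. The first residual component (20.4% of the variance, led by long transcripts such as *Kcnh7*) set 14 libraries apart, between 1 and 3 in each group. All 9 of these in the Glu-CB1 line fell in 1 range of animal numbers that holds 11 libraries, and all 5 in the GABA-CB1 line in 1 range that holds 13. Genotypes were not spread evenly over the ranges of animal numbers. In each line, 1 range held basal KO libraries but no basal controls, and KO libraries outnumbered controls in it. The main fit had no term for the range, so the KO effects are not separated from it there. With the animal number range as covariate 92 genes were called for the line contrast, 76 of them among the 114 reported next. The part of the range in the KO effects was not tested beyond this covariate. The summed choroid plexus markers reached 1120.0, 2423 and 5505 CPM in Glu-CB1-KO basal replicate 6, GABA-CB1-WT basal replicate 3 and GABA-CB1-KO open field replicate 4, while no other library exceeded 608 CPM. The line contrast was therefore also fitted without the 3 libraries of highest choroid plexus sum and without the 14 libraries, both chosen after the data were seen. The tissue is bulk, so fewer cells of a type and less RNA per cell cannot be told apart in any result given here.

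The line contrast was called for 114 of 15570 genes tested (0.732%), as differentially expressed genes (DEGs) at an adjusted p-value under 0.05 in the quasi-likelihood test of edgeR, adjusted after Benjamini and Hochberg. Of these, 64 were higher (0.411%) and 50 lower (0.321%) in the Glu-CB1 line relative to the GABA-CB1 line. Most differences were small. The median size was 0.33 on the log2 scale, 82 genes were under 0.5, and 6 genes exceeded 1, namely *Gm3279*, *Pdlim1* and *Blnk* among the higher and *Rspo1*, *Wnt3a* and *Wnt11* among the lower. *Wnt3a*, a Wnt ligand with a mean of only 0.263 CPM, lies outside the rule for named genes and is given because of this count (line contrast −1.46, standard error 0.36, adjusted p = 0.0349 in edgeR's test). Without the 3 libraries of highest choroid plexus sum 136 genes were called, 102 of them shared with the 114. Without the 14 libraries set apart 53 genes were called, of which 47 were shared.

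The KO effect of each line alone was called for 58 genes in Glu-CB1-KO mice (0.373%, 26 higher and 32 lower) and for 73 genes in GABA-CB1-KO mice (0.469%, 21 higher and 52 lower). Among the 114 DEGs of the line contrast, 11 were dichotomic, that is, called in both lines in opposite directions. Another 23 were called in the Glu-CB1 line only, 25 in the GABA-CB1 line only, and 54 in neither line alone. *Cnr1* was the only one of the 114 called in both lines in the same direction, where 2 genes were over all genes tested. The estimates of the lines had opposite signs for 111 of the 114 genes, where all genes tested gave 50.1%, a share that a large difference between the lines favours by construction. Over all genes tested, the KO effects of the lines had a Pearson's r of 0.0614 (Spearman's rho 0.00566). Genes do not count as independent replicates here, and all 48 libraries share one scaling.

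**Figure D1:**
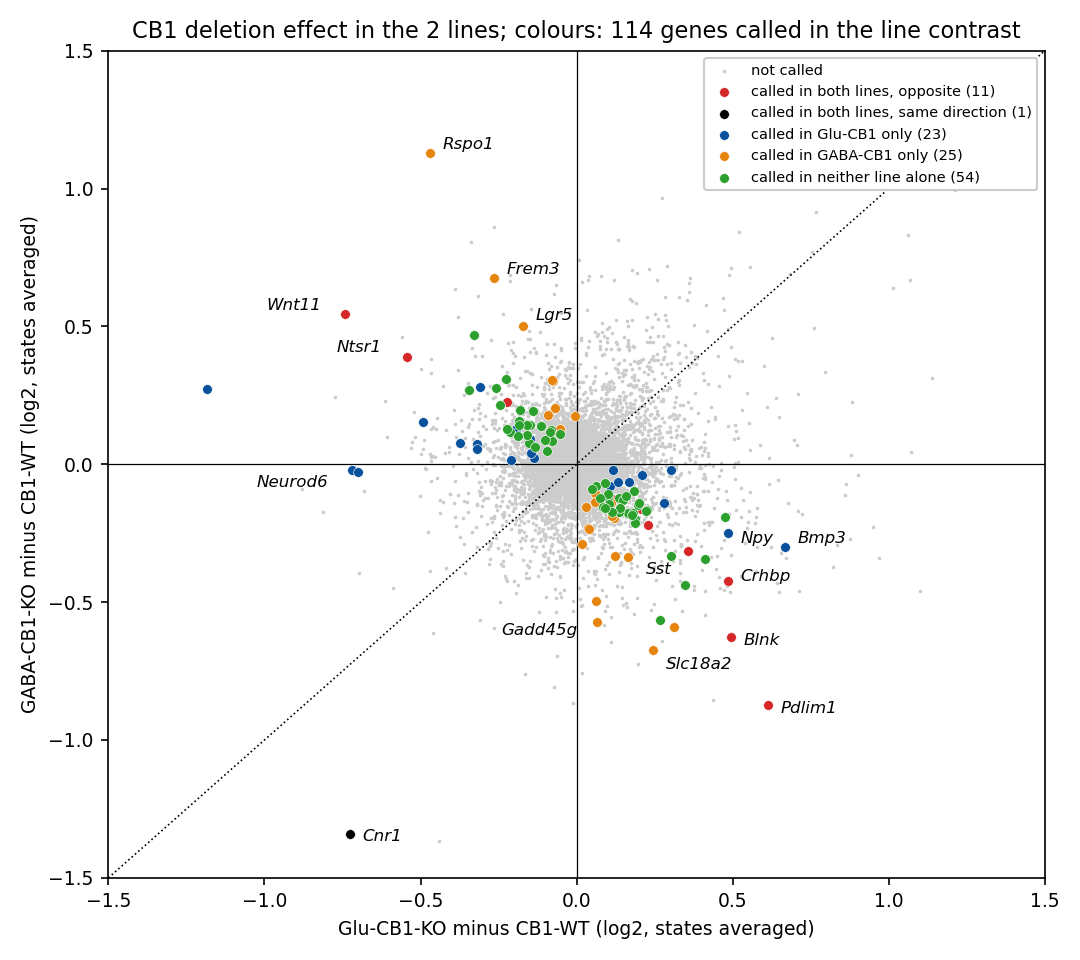
KO effect in the GABA-CB1 line (vertical axis) against that in the Glu-CB1 line (horizontal axis), both log2 and averaged over states, with 1 point per gene and colours for the 114 genes of the line contrast. The 11 dichotomic genes (red) lie in the upper left and lower right fields. Of the 114 genes, *Cnr1* alone was called lower in both lines, and 5 genes outside the axes, among them *Gm3279*, are not drawn.

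The deleted gene and the gene named for the driver of the Glu-CB1 line were examined first. *Cnr1* (mm10, chr4:33924632-33948831), the gene of CB1, was below the lowest control of the line in all KO libraries. Over both states it lay between 330.3 and 412 CPM in Glu-CB1-WT and between 204 and 249 CPM in Glu-CB1-KO mice. GABA-CB1-WT libraries lay between 311 and 394 CPM and GABA-CB1-KO libraries between 100.3 and 158 CPM. The KO effect was −0.73 (standard error 0.05, adjusted p = 6.18e-16) in the Glu-CB1 line and −1.34 (standard error 0.05, adjusted p = 1.19e-25) in the GABA-CB1 line. The line contrast of 0.62 (standard error 0.07, adjusted p = 3.03e-08) thus gives the larger share of *Cnr1* mRNA lost with the GABAergic deletion, and it kept its call in all 11 alternatives (0.59 to 0.69).

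*Neurod6* (chr6:55677819-55681263), a transcription factor of pyramidal neurons also named *Nex*, is the gene whose regulatory elements drive Cre in the Glu-CB1 line. It was lower in all 14 Glu-CB1-KO libraries (198 to 259 CPM) than in all CB1-WT libraries of that line (306 to 400.0 CPM). The GABA-CB1 line spanned 300.2 to 369 CPM with overlapping groups, and the line contrast was −0.70 (standard error 0.06, adjusted p = 3.49e-11). *Gm3279* (chr6:55684571-55694574), a predicted gene 3308 bp away, had between 1.76 and 4.21 CPM in Glu-CB1-KO mice and at most 0.582 CPM in the other 34 libraries. Its line contrast of 3.45 (standard error 0.26, adjusted p = 1.09e-12) was the largest of all genes, and neither gene was called in the GABA-CB1 line (adjusted p = 0.948 for *Neurod6* and 0.787 for *Gm3279*). Within 10 Mb of *Neurod6*, 4 of 99 genes tested were called, *Npy*, *Gm3279*, *Fkbp9* and *Ccser1*, where 0.732% of all genes tested were called. The count was 0 of 94 within 10 Mb of *Cnr1*, which is close to that share. *Fkbp9* and *Ccser1* are outside the naming rule and given for this count. *Npy* starts 5.85 Mb from *Neurod6*, and the part of this proximity in its values was not tested.

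Genes of somatostatin and neuropeptide Y interneurons were among the higher ones. *Sst* encodes the peptide somatostatin and *Npy* the peptide neuropeptide Y, both released by dendrite-targeting interneurons, and *Crhbp* encodes a secreted protein that binds and sequesters corticotropin-releasing hormone. All 3 were higher in Glu-CB1-KO relative to GABA-CB1-KO mice. Because they moved together, the 250 bases upstream of their annotated starts are shown, from RefSeq on build GRCm38.p6, 5′ to 3′ on the strand of the gene. *Sst* is taken from chr16:23890845-23891094 (minus strand), *Npy* from chr6:49822460-49822709 (plus strand) and *Crhbp* from chr13:95444832-95445081 (minus strand). Capitals mark a cAMP response element (CRE, TGACGTCA) or its first letters (TGACG), searched on both strands.
Sst: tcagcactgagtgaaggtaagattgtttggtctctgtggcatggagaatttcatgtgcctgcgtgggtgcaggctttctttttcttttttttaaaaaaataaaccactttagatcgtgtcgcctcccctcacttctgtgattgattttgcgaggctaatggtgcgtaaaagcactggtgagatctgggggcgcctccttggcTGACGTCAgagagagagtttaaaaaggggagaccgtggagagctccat
Npy: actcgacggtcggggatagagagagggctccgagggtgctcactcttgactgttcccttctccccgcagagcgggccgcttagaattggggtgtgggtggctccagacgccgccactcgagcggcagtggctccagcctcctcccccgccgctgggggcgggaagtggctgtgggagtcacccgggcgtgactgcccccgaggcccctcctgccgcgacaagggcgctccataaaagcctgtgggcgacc
Crhbp: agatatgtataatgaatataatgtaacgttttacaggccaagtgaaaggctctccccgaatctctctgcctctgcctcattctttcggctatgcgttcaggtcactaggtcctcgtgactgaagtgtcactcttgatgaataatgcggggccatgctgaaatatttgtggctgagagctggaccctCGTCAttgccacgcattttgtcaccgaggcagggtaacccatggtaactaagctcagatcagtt
*Sst* held the full CRE, 48 to 41 bases before its start, *Crhbp* held the short form on the opposite strand (read here as CGTCA) 64 to 60 bases before its start, and *Npy* held none of the motifs searched. These are matches of letters and not shown to be sites.

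The same motifs were counted over the called genes that matched the RefSeq promoter table, 89 of 114. The full CRE was found in 2 of 49 promoters of higher genes (4.08%) and 0 of 40 of lower genes, against 2.95% of the 11714 genes tested that matched and 1.55% of all 32851 promoters. The short form TGACG, which the full CRE contains, was present in 14 higher genes (28.6%) and 8 lower genes (20.0%), against 29% of genes tested and 17.8% of all promoters. The AP-1 motif TGANTCA was present in 6.12% of higher and 5.0% of lower genes against 5.57% of genes tested. Shares of the E-box CAGATG were 14.3% and 10.0% against 12.6%, and those of the E-box CACGTG 10.2% and 7.5% against 9.49%. The EGR motif GCGTGGGCG was in no called promoter and in 1.16% of those of genes tested. These shares rest on few promoters, and nothing about the factors follows from them.

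*Crhbp* (chr13:95431376-95444831) had 19.0, 19.3, 21.1, 23.6 and 31.4 CPM in Glu-CB1-WT mice in the basal state, where Glu-CB1-KO libraries ran from 23.9 to 33.4 CPM (median 31.5, n = 7). Following the open field, its levels were 15.4, 18.7, 19.0, 21.9 and 24.4 CPM in Glu-CB1-WT and 26.8 to 34.9 CPM (median 30.0) in Glu-CB1-KO mice, with no overlap. In the GABA-CB1 line the order was turned. Basal controls ran from 21.3 to 28.4 CPM (median 24.6) and GABA-CB1-KO libraries from 16.5 to 19.6 CPM (median 18.1), again without overlap. In the open field groups the controls ran from 22 to 27.1 CPM (median 23.4) and the KO libraries gave 15, 16.3, 16.8, 18.5 and 24.1 CPM, so that 1 KO library fell among the controls. *Crhbp* was dichotomic, with a KO effect of 0.48 (standard error 0.08, adjusted p = 0.000145) in the Glu-CB1 line and −0.42 (adjusted p = 0.00141) in the GABA-CB1 line, and its line contrast was 0.91 (standard error 0.11, adjusted p = 1.96e-07). The contrast was 0.80 in the basal state and 1.01 after open field exposure.

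*Sst* (chr16:23889581-23890844) had 86.4, 88.9, 94.4, 96.2 and 134 CPM in basal Glu-CB1-WT mice and 96.5 to 147 CPM (median 116) in Glu-CB1-KO mice. With the open field, Glu-CB1-WT libraries gave 69.5, 77.2, 89.2, 89.3 and 112 CPM and Glu-CB1-KO libraries 109 to 125 CPM (median 121). These groups overlapped by 1 control library in each state, basal replicate 3 being the highest control. In GABA-CB1 mice, *Sst* ran from 94.7 to 126 CPM (median 106) in basal controls and from 81.6 to 98.3 CPM (median 87.2) in KO mice. Following the open field, the controls ran from 96.1 to 124 CPM (median 103), above all KO libraries at 81.7, 81.8, 81.9, 85.2 and 91.3 CPM. The KO effect was 0.36 (standard error 0.07, adjusted p = 0.00240) in Glu-CB1-KO and −0.31 (standard error 0.07, adjusted p = 0.0116) in GABA-CB1-KO mice, giving a line contrast of 0.67 (standard error 0.09, adjusted p = 8.63e-06).

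*Npy* (chr6:49822729-49829505) had 23.8, 26.4, 28.4, 29.7 and 33 CPM in basal Glu-CB1-WT mice and 32.6 to 41.5 CPM (median 38.2) in Glu-CB1-KO mice. With the open field it had 21.1, 23.1, 25.5, 28.2 and 32.6 CPM against 33.4 to 42.1 CPM (median 38.7), without overlap. In the GABA-CB1 line the groups overlapped in both states, with 23 to 35.4 CPM against 23 to 27.6 CPM in the basal state and 25.9 to 33.1 CPM against 22.2, 23.7, 25.8, 26.1 and 30.7 CPM after open field exposure. *Npy* rose in Glu-CB1-KO mice by 0.49 (standard error 0.07, adjusted p = 9.07e-06), while its value in GABA-CB1-KO mice, −0.25, missed the threshold (adjusted p = 0.0707). The line contrast was 0.73 (standard error 0.09, adjusted p = 7.50e-07). These 3 genes kept their calls with each of the 48 libraries left out in turn.

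Of the list of 11 markers of somatostatin and neuropeptide Y interneurons, these 3 were called, against 0.732% of all genes tested. In this list 9 had a positive line contrast (7475 of 15570 over all genes tested), with a median of 0.139 against −0.00354. The transcription factors *Lhx6* (0.17, adjusted p = 0.383) and *Satb1* (0.14, adjusted p = 0.413) and the synaptic adhesion gene *Elfn1* (0.21, adjusted p = 0.193), which mark the same cells, were not called. *Nos1* (−0.15) and *Grin3a* (−0.04) had negative values. The summed level of the 11 markers was 568.7 to 697.4 CPM in basal Glu-CB1-WT, 618.9 to 753.4 CPM in basal Glu-CB1-KO, 578.6 to 687.9 CPM in basal GABA-CB1-WT and 592.7 to 660.3 CPM in basal GABA-CB1-KO mice, with overlap in both lines. After open field exposure it was 549.6 to 655.2 CPM (median 588.9) in Glu-CB1-WT and 617.3 to 711.8 CPM (median 666.2) in Glu-CB1-KO mice, and 618.1 to 687.5 CPM (median 653.9) in GABA-CB1-WT and 575.0 to 632.4 CPM (median 615.3) in GABA-CB1-KO mice, again with overlap. The line contrast of the summed level was 0.179 on the log2 scale. With the sums of markers of the CA1, CA3 and CA2, subiculum and other regions as covariates, an alternative added after the data were seen, the list had the same count of 3 called genes and a median of 0.101.

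**Figure D2:**
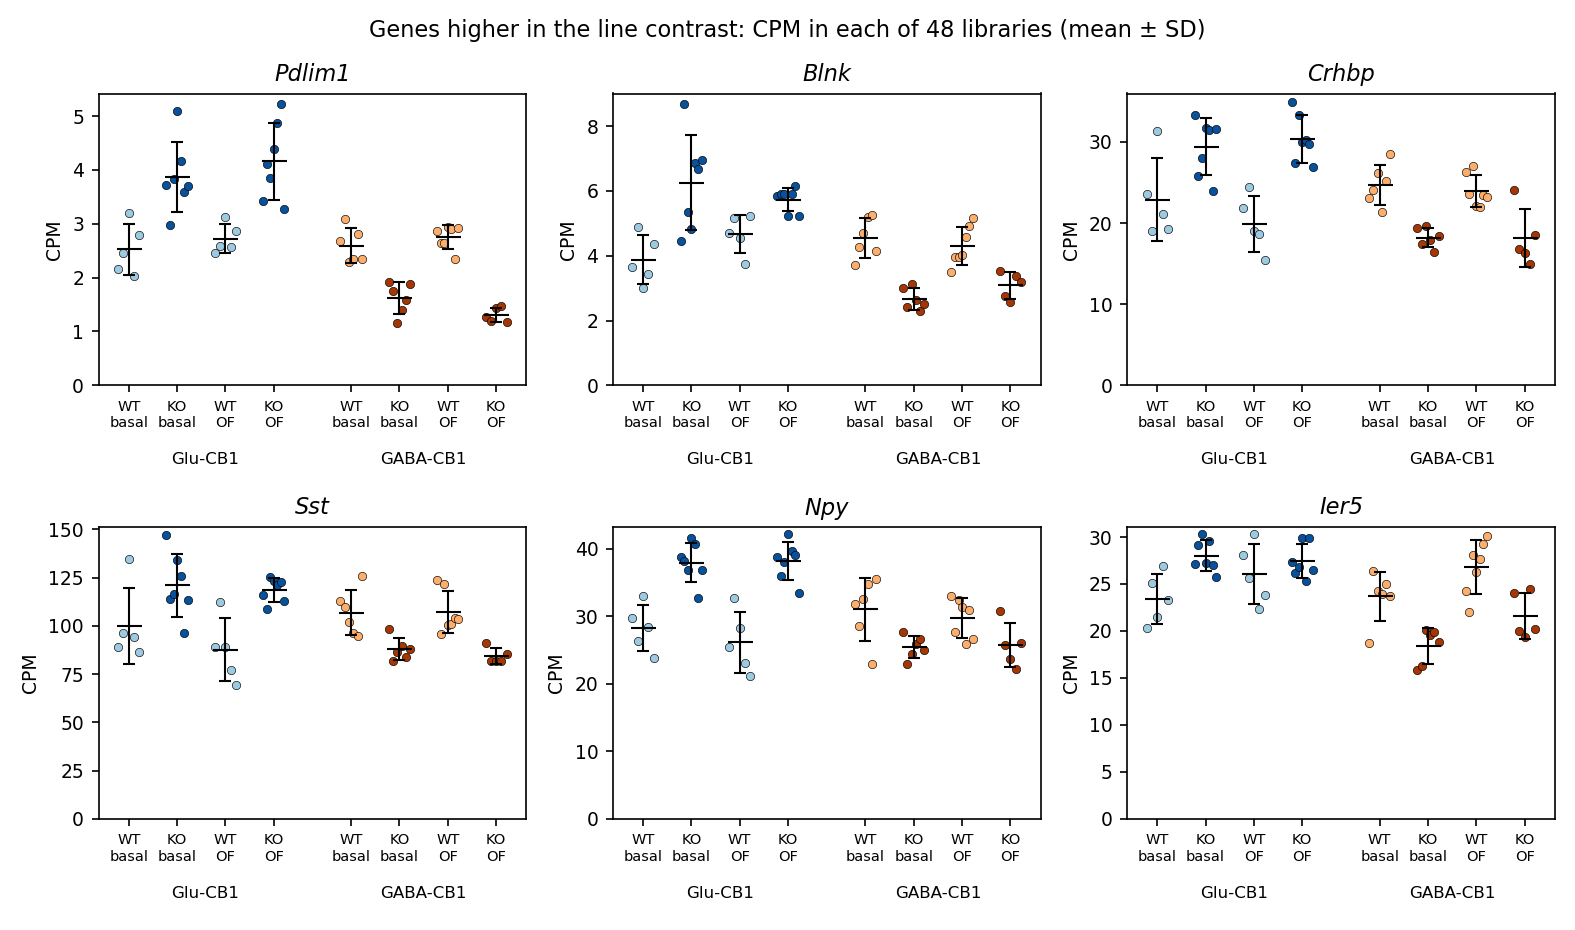
CPM of 6 genes with a positive line contrast in each of the 48 libraries (points), with the mean and SD of each group (bars), by line, genotype and state (OF, open field). *Pdlim1*, *Blnk* and *Crhbp* sit higher in Glu-CB1-KO and lower in GABA-CB1-KO mice than in their controls, whereas *Ier5* is lower in GABA-CB1-KO mice and was not called in the Glu-CB1 line.

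*Pdlim1* (chr19:40222239-40271616) encodes a PDZ and LIM domain protein of the actin cytoskeleton, and *Blnk* (chr19:40928927-40994535) an adaptor of B cell receptor signalling that microglia also express. They lie 657311 bp apart, and both were dichotomic. *Pdlim1* had 2.04, 2.15, 2.47, 2.79 and 3.19 CPM in basal Glu-CB1-WT mice, and KO libraries ran from 2.98 to 5.09 CPM (median 3.72). Of the open field groups, the controls gave 2.46, 2.56, 2.59, 2.87 and 3.13 CPM, all under the KO range of 3.28 to 5.22 CPM (median 4.11). In the GABA-CB1 line every KO library was below every control. Basal levels fell from 2.29 to 3.08 CPM (median 2.51) to 1.16 to 1.93 CPM (median 1.67), and those after open field exposure from 2.35 to 2.94 CPM (median 2.86) to 1.17, 1.19, 1.27, 1.44 and 1.47 CPM. The KO effects were 0.61 (standard error 0.09, adjusted p = 1.28e-05) and −0.87 (standard error 0.09, adjusted p = 2.54e-08), and the line contrast was 1.49 (standard error 0.13, adjusted p = 1.72e-11). It was 1.28 in the basal state and 1.69 after open field exposure.

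*Blnk* had 3.01, 3.45, 3.66, 4.36 and 4.90 CPM in basal Glu-CB1-WT mice against 4.46 to 8.69 CPM (median 6.68) in Glu-CB1-KO mice. Values in the open field groups were 3.76, 4.55, 4.70, 5.15 and 5.22 CPM against 5.22 to 6.15 CPM (median 5.89), so that only the extremes met. In GABA-CB1-KO mice it was below all controls in the basal state, with 2.28 to 3.12 CPM (median 2.57) against 3.71 to 5.26 CPM (median 4.49). Those exposed to the open field gave 2.56, 2.77, 3.20, 3.39 and 3.54 CPM, and their controls 3.51 to 5.16 CPM (median 4.03). The KO effects were 0.50 (adjusted p = 0.00113) and −0.63 (adjusted p = 4.82e-05), with a line contrast of 1.12 (standard error 0.13, adjusted p = 1.01e-07). Among 14 microglial markers *Blnk* was the only one called. The other 13, among them the microglial receptors *Cx3cr1* (−0.01), *P2ry12* (0.09) and *Csf1r* (−0.02), lay between −0.06 and 0.09, and the summed level of the 14 had a line contrast of 0.0253 on the log2 scale.

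The other dichotomic genes with a positive line contrast were *Dner*, a Notch ligand of neurons (0.24, standard error 0.03, adjusted p = 6.14e-06), *Ankrd33b*, an ankyrin repeat gene (0.37, standard error 0.05, adjusted p = 8.63e-06), and *Mylk*, the myosin light chain kinase (0.45, standard error 0.08, adjusted p = 0.000382). For *Dner* the KO effects were 0.11 and −0.12, so this call rests on small changes in both lines. Dichotomic genes with a negative line contrast included *Ntsr1*, *Wnt11* and *Sema4f*. *Sema4f*, a transmembrane semaphorin of axon guidance, had a KO effect of −0.20 (adjusted p = 9.94e-06) in the Glu-CB1 line and 0.12 (adjusted p = 0.0161) in the GABA-CB1 line, with a line contrast of −0.32 (standard error 0.04, adjusted p = 1.96e-07). The count of 11 dichotomic genes was 18 with DESeq2 and ran from 6 to 20 with 1 library left out, the highest without GABA-CB1-KO open field replicate 1 and the lowest without replicate 2 of that group. Without replicate 5 of it 7 remained, and without the 14 libraries set apart 5.

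*Ntsr1* (chr2:180499976-180544979) encodes the high-affinity receptor of neurotensin. It had 3.56, 4.02, 4.13, 4.75 and 5.30 CPM in basal Glu-CB1-WT mice and 2.62 to 4.06 CPM (median 3.21) in Glu-CB1-KO mice. After open field exposure it had 4.08, 4.45, 4.47, 4.70 and 4.89 CPM against 2.41 to 4.03 CPM (median 2.82), without overlap. In the GABA-CB1 line the basal KO libraries (5.53 to 6.65 CPM, median 6.11) were all above the controls (3.32 to 5.11 CPM, median 4.89). The open field groups overlapped, with 3.28 to 5.19 CPM (median 4.18) in controls and 3.42, 4.76, 5.37, 6.47 and 6.73 CPM in KO mice. *Ntsr1* fell by 0.54 (standard error 0.10, adjusted p = 0.000793) in Glu-CB1-KO mice and rose by 0.39 (adjusted p = 0.0247) in GABA-CB1-KO mice, and the line contrast was −0.93 (standard error 0.13, adjusted p = 8.63e-06).

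*Rspo1* and *Wnt11* act in Wnt signalling, the first as a secreted enhancer and the second as a ligand. *Rspo1* (chr4:124986430-125009099) had 0.578, 0.649, 0.867, 0.918 and 0.970 CPM in basal Glu-CB1-WT mice and 0.453 to 0.814 CPM (median 0.713) in Glu-CB1-KO mice, with overlap. With the open field it had 0.758, 0.841, 0.843, 1.04 and 1.24 CPM against 0.482 to 0.737 CPM (median 0.50), without overlap. The KO effect was called in GABA-CB1-KO mice, where it rose from 0.520 to 1.14 CPM (median 0.851) to 1.54 to 2.57 CPM (median 1.86) in the basal state. The open field controls ran from 0.579 to 0.872 CPM (median 0.761) and the KO libraries gave 0.520, 1.19, 1.73, 2.20 and 2.23 CPM, of which 1 was below all controls. The KO effect was 1.13 (standard error 0.15, adjusted p = 4.23e-06) in the GABA-CB1 line, −0.47 (adjusted p = 0.318) in the Glu-CB1 line, and the line contrast −1.60 (standard error 0.22, adjusted p = 7.45e-06).

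*Wnt11* (chr7:98835112-98854747) had 0.497, 0.934, 0.973, 1.09 and 1.17 CPM in basal Glu-CB1-WT mice against 0.384 to 0.843 CPM (median 0.685) in Glu-CB1-KO mice. The open field controls gave 0.947, 0.982, 1.00, 1.09 and 1.15 CPM, all above the KO range of 0.379 to 0.741 CPM (median 0.535). In the GABA-CB1 line the groups overlapped in both states, with 0.673 to 1.02 CPM against 0.933 to 1.19 CPM in the basal state and 0.542 to 1.19 CPM against 0.846, 0.982, 1.37, 1.57 and 2.09 CPM after open field exposure. The KO effects were −0.74 (adjusted p = 0.00526) and 0.55 (adjusted p = 0.0476) and the line contrast was −1.29 (standard error 0.20, adjusted p = 7.46e-05). *Lgr5*, a receptor of R-spondins, had a line contrast of −0.67 (standard error 0.15, adjusted p = 0.0116), and a KO effect of 0.50 in the GABA-CB1 line (adjusted p = 0.00728). Of 75 genes of axon guidance and Wnt signalling tested, *Rspo1*, *Lgr5* and the semaphorin receptor *Plxna1* (−0.19, adjusted p = 0.0463) were lower and the secreted semaphorin *Sema3a* (0.67, adjusted p = 0.0377) was higher. The median of the list was −0.0212, with 33 positive values, where 0.732% of all genes tested were called and 7475 of 15570 values were positive. The list does not hold *Wnt11*, *Wnt3a* and *Sema4f*, which were also called lower, or the Wnt signalling gene *Kremen1*, called higher (0.30, adjusted p = 0.00891). These came to notice because they were called, and uncalled genes outside the list were not counted. They therefore add nothing to its count. Leaving out 1 library ended the call of *Plxna1* in 31 of 48 fits (highest adjusted p = 0.0922, without Glu-CB1-WT open field replicate 4) and that of *Sema3a* in 12 (highest adjusted p = 0.0722, without Glu-CB1-WT basal replicate 2).

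**Figure D3:**
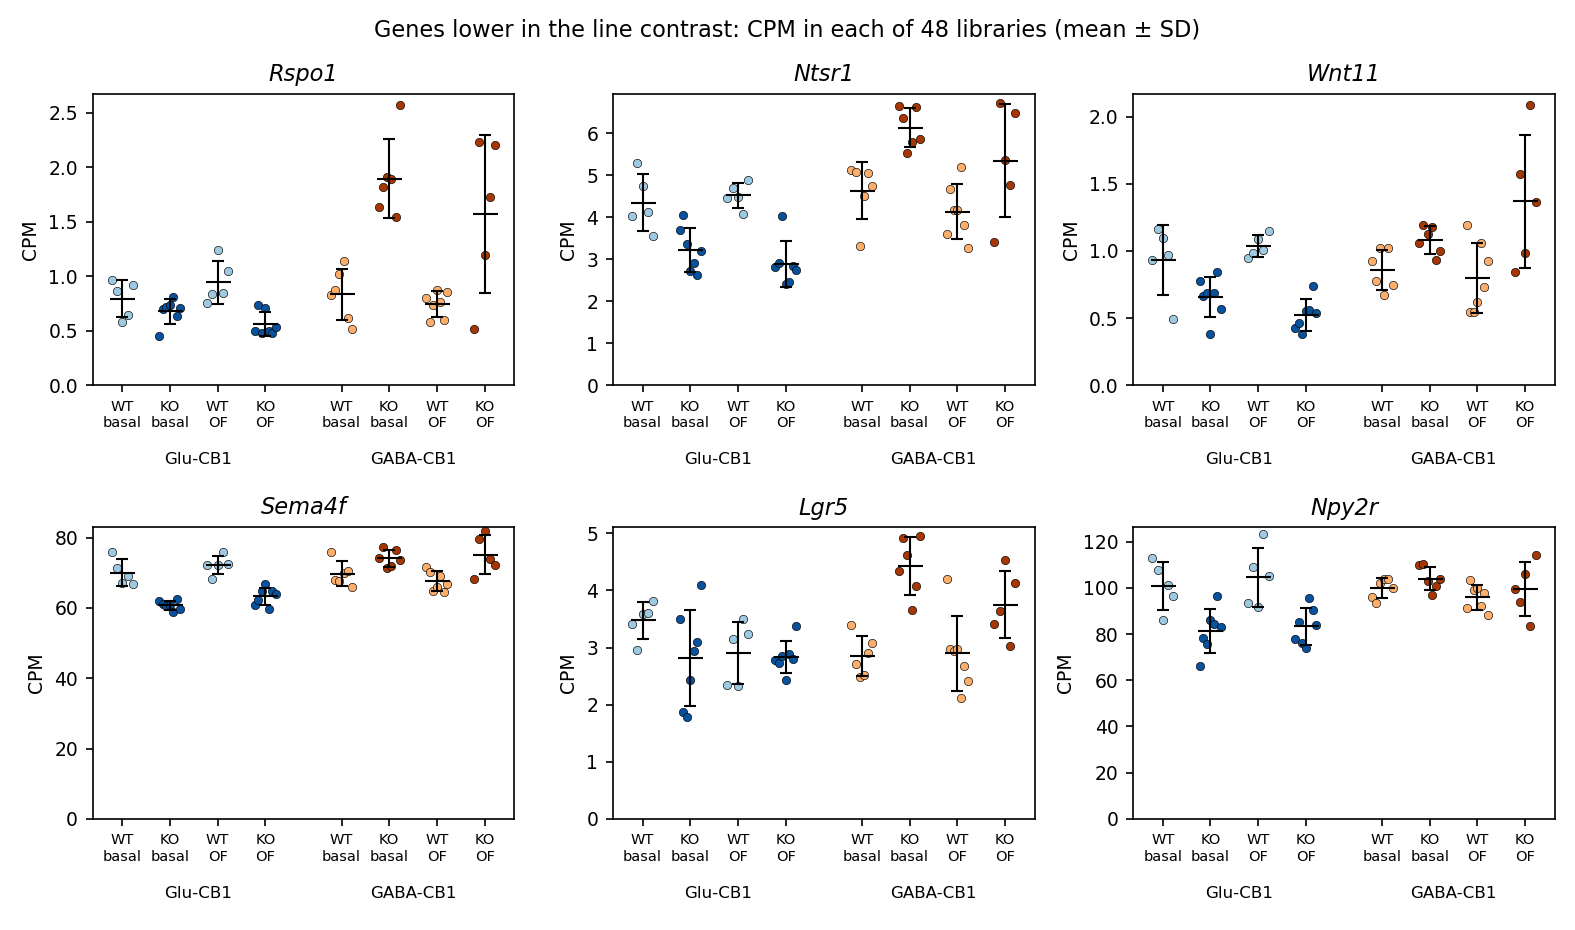
CPM of 6 genes with a negative line contrast in each of the 48 libraries (points), with the mean and SD of each group (bars). *Ntsr1* and *Wnt11* lie lower in Glu-CB1-KO and higher in GABA-CB1-KO mice than in their controls, *Rspo1* is set apart by GABA-CB1-KO mice and *Npy2r* by Glu-CB1-KO mice.

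Among 36 neuropeptide precursors and granins, 5 were higher in the line contrast, 0 were lower, and 24 values were positive, with a median of 0.0792, where 0.411% of all genes tested were called higher and 7475 of 15570 values were positive. Besides *Sst* and *Npy* these were *Tac1*, the precursor of substance P (0.63, standard error 0.15, adjusted p = 0.0226), *Vgf*, a secreted granin-like protein (0.40, standard error 0.10, adjusted p = 0.0276), and *Scg2*, secretogranin II of dense-core vesicles (0.25, standard error 0.06, adjusted p = 0.0494), which is outside the naming rule and completes the count. In the Glu-CB1 line *Tac1*, *Vgf* and *Scg2* had KO effects of 0.30, 0.19 and 0.09, and in the GABA-CB1 line of −0.33, −0.21 and −0.16. *Tac1* groups overlapped in both lines and states, with the lowest values (2.76 to 5.82 CPM) in Glu-CB1-WT mice after open field exposure. *Vgf* lost its call without Glu-CB1-WT open field replicate 5 (adjusted p = 0.0503) and without GABA-CB1-KO open field replicate 3 (adjusted p = 0.0540). The precursors of cholecystokinin (*Cck*, 0.05), vasoactive intestinal peptide (*Vip*, 0.08) and enkephalin (*Penk*, −0.18) were not called.

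Of 29 receptors and binding proteins for peptides and stress hormones, *Crhbp* was higher and *Ntsr1* and *Npy2r* were lower, with a median of 0.00484. Over all genes tested, 0.732% were called. *Npy2r* (chr3:82538383-82548085), the presynaptic Y2 receptor of neuropeptide Y, had 86.0, 96.6, 101, 108 and 113 CPM in basal Glu-CB1-WT mice and 66.0 to 96.4 CPM (median 83.3) in Glu-CB1-KO mice. It had 91.9, 93.3, 105, 109 and 124 CPM against 74.0 to 95.8 CPM (median 84.1) after open field exposure. All 4 pairs of groups overlapped. Its KO effect was −0.32 (standard error 0.05, adjusted p = 0.000292) in the Glu-CB1 line and 0.06 (adjusted p = 0.854) in the GABA-CB1 line, with a line contrast of −0.37 (standard error 0.07, adjusted p = 0.00339). *Npy* and *Npy2r* thus had line contrasts of opposite sign, as *Crhbp* and *Crhr1* did, the receptor of corticotropin-releasing hormone (−0.35, standard error 0.10), although *Crhr1* missed the threshold (adjusted p = 0.0659). The Y1 receptor gene *Npy1r* had a line contrast of 0.06 (adjusted p = 0.931). Opposite signs of peptide and receptor were not general. Of the somatostatin receptors, *Sstr1* (0.30) and *Sstr3* (0.005) had the sign of *Sst*, and *Sstr2* (−0.19) and *Sstr4* (−0.18) the opposite, none of them called.

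Immediate early genes, which neurons transcribe within minutes of activity, were called for 3 of 39, all higher, and 27 values were positive (median 0.0581), again against 0.411% called higher and 7475 of 15570 positive over all genes tested. *Ier5* had 20.3, 21.5, 23.3, 25.1 and 26.9 CPM in basal Glu-CB1-WT and 25.7 to 30.3 CPM (median 27.3) in Glu-CB1-KO mice, and 18.8 to 26.4 CPM (median 24.1) against 15.8 to 20.1 CPM (median 19.2) in the GABA-CB1 line. The groups overlapped in all 4 comparisons, and the line contrast was 0.50 (standard error 0.08, adjusted p = 0.000150). *Gadd45g*, a DNA damage and activity inducible gene, was below all controls in GABA-CB1-KO mice in both states (3.25 to 4.56 CPM against 4.88 to 6.97 CPM in the basal state, and 3.12, 3.61, 4.54, 4.63 and 4.68 CPM against 5.16 to 6.70 CPM after open field exposure). In the Glu-CB1 line its effect was 0.07 (adjusted p = 0.943), and the line contrast was 0.64 (standard error 0.12, adjusted p = 0.00101). *Ptgs2*, the inducible cyclooxygenase that also oxygenates endocannabinoids, had a line contrast of 0.56 (standard error 0.14, adjusted p = 0.0449). Its call was lost in 29 of the 48 fits without 1 library (adjusted p up to 0.0816, reached without GABA-CB1-KO open field replicate 3) and without the 3 libraries of highest choroid plexus sum.

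The KO effects of *Ier5*, *Ptgs2* and *Gadd45g* were called in the GABA-CB1 line only, at −0.34, −0.50 and −0.57. *Fosb*, an AP-1 subunit, had a line contrast of 0.68 (standard error 0.23, adjusted p = 0.213) that passed the threshold without GABA-CB1-KO basal replicate 5 (0.91, adjusted p = 0.00771). *Bdnf*, the brain-derived neurotrophic factor, likewise had a KO effect called in the GABA-CB1 line only, at −0.34 (adjusted p = 0.00475). In the Glu-CB1 line its KO effect was 0.02 (adjusted p = 0.983). Its line contrast was 0.36 (standard error 0.10, adjusted p = 0.0549) and passed in 8 of the 48 fits without 1 library. The lowest adjusted p was 0.0134, without GABA-CB1-KO basal replicate 5. It also passed in 5 of 11 alternatives, among them DESeq2 (adjusted p = 0.0231), the animal number range as covariate (adjusted p = 0.0190) and marker sums as covariates (adjusted p = 0.000385), over which the adjusted p ran up to 0.998. The synaptic activity gene *Arc* (−0.01, standard error 0.22, adjusted p = 0.999) and the nuclear receptor gene *Nr4a2* (0.10, standard error 0.17, adjusted p = 0.952) were not called. *Egr2*, a zinc finger transcription factor, had the most negative value of the list (−1.15, standard error 0.43, adjusted p = 0.333).

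Of 17 genes of the endocannabinoid system tested, *Cnr1* and *Ptgs2* were called, against 0.732% of all genes tested, and the median was 0.0240. *Cnr1* is the deleted gene, so its call is not a result about the system. The call of *Ptgs2* was lost in 29 of the 48 fits without 1 library. The enzymes that make and degrade 2-arachidonoylglycerol, *Dagla* (−0.08, adjusted p = 0.828), *Daglb* (0.11, adjusted p = 0.479) and *Mgll* (0.05, adjusted p = 0.916), were not called. Neither was *Faah*, which degrades anandamide (−0.11, adjusted p = 0.382). The receptor *Gpr12* came nearest among the rest (−0.23, standard error 0.06, adjusted p = 0.0659).

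DEGs of the synaptic and ion channel lists are given beside a share of 0.732% called over all genes tested. *Slc18a2*, the vesicular monoamine transporter, was the only one of 37 genes of monoamine and acetylcholine signalling (0.92, standard error 0.17, adjusted p = 0.00105), with a KO effect of −0.67 in the GABA-CB1 line (adjusted p = 0.00139). Its basal GABA-CB1-KO libraries (1.37 to 2.67 CPM) lay below all controls (3.24 to 4.77 CPM), but after open field exposure replicate 1 stood at 4.68 CPM and the other 4 KO libraries at 1.93 to 2.54 CPM. Of 60 potassium channel subunits, *Kcnip3* (0.34, adjusted p = 0.00150) and *Kcnip1* (0.34, adjusted p = 0.00491), which bind Kv4 channels, and *Kcnn2*, a calcium-activated channel (0.26, adjusted p = 0.00509), were higher. *Kcnip3* and *Kcnip1* lost their calls without the 14 libraries set apart. Of 48 genes of vesicle release, *Rab3b* (0.39, adjusted p = 0.00134) and the SNARE gene *Vamp1* (0.19, adjusted p = 0.0167) were higher, the latter not with the animal number range as covariate. *Cnih3*, an auxiliary subunit of AMPA receptors, was the only one of 31 glutamate receptor genes (0.32, adjusted p = 0.0463), and *Gad1*, which makes GABA, the only one of 22 genes of GABA signalling (0.16, adjusted p = 0.0458). Their calls were lost in 29 and 30 of the 48 fits without 1 library (highest adjusted p = 0.0901 without Glu-CB1-WT open field replicate 4 for *Cnih3* and 0.0907 without Glu-CB1-WT basal replicate 4 for *Gad1*). None of the listed 27 calcium, sodium and HCN channel genes, 52 subunits of the respiratory chain and 27 glucocorticoid-induced and clock genes was called. *Cox6a2*, a cytochrome c oxidase subunit outside the list, was called higher (0.75, standard error 0.19, adjusted p = 0.0470) at a mean of 1.15 CPM. Of the 52 respiratory chain values 46 were positive (median 0.0518), where 7475 of 15570 were over all genes tested.

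The NMDA receptor subunit *Grin2b* could hardly be judged, since its level ranged from 22.4 to 171 CPM over the 48 libraries and from 36 to 169.8 CPM within the 5 basal Glu-CB1-WT libraries alone. Its line contrast was −0.22 with a standard error of 0.42 (adjusted p = 0.968). *Ldb2*, a LIM domain binding factor, had 0.44 (standard error 0.13, adjusted p = 0.126) and passed the threshold without Glu-CB1-WT basal replicate 3 (adjusted p = 0.0454) and without Glu-CB1-KO basal replicate 6 (adjusted p = 0.0499). *Sptb*, a beta spectrin of the membrane skeleton, had −0.16 (standard error 0.04, adjusted p = 0.0264), and lost its call without Glu-CB1-WT basal replicate 2 (adjusted p = 0.0524) and without GABA-CB1-WT basal replicate 6 (adjusted p = 0.0517). Its contrast was −0.04 in the basal state and −0.28 after open field exposure.

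**Figure D4:**
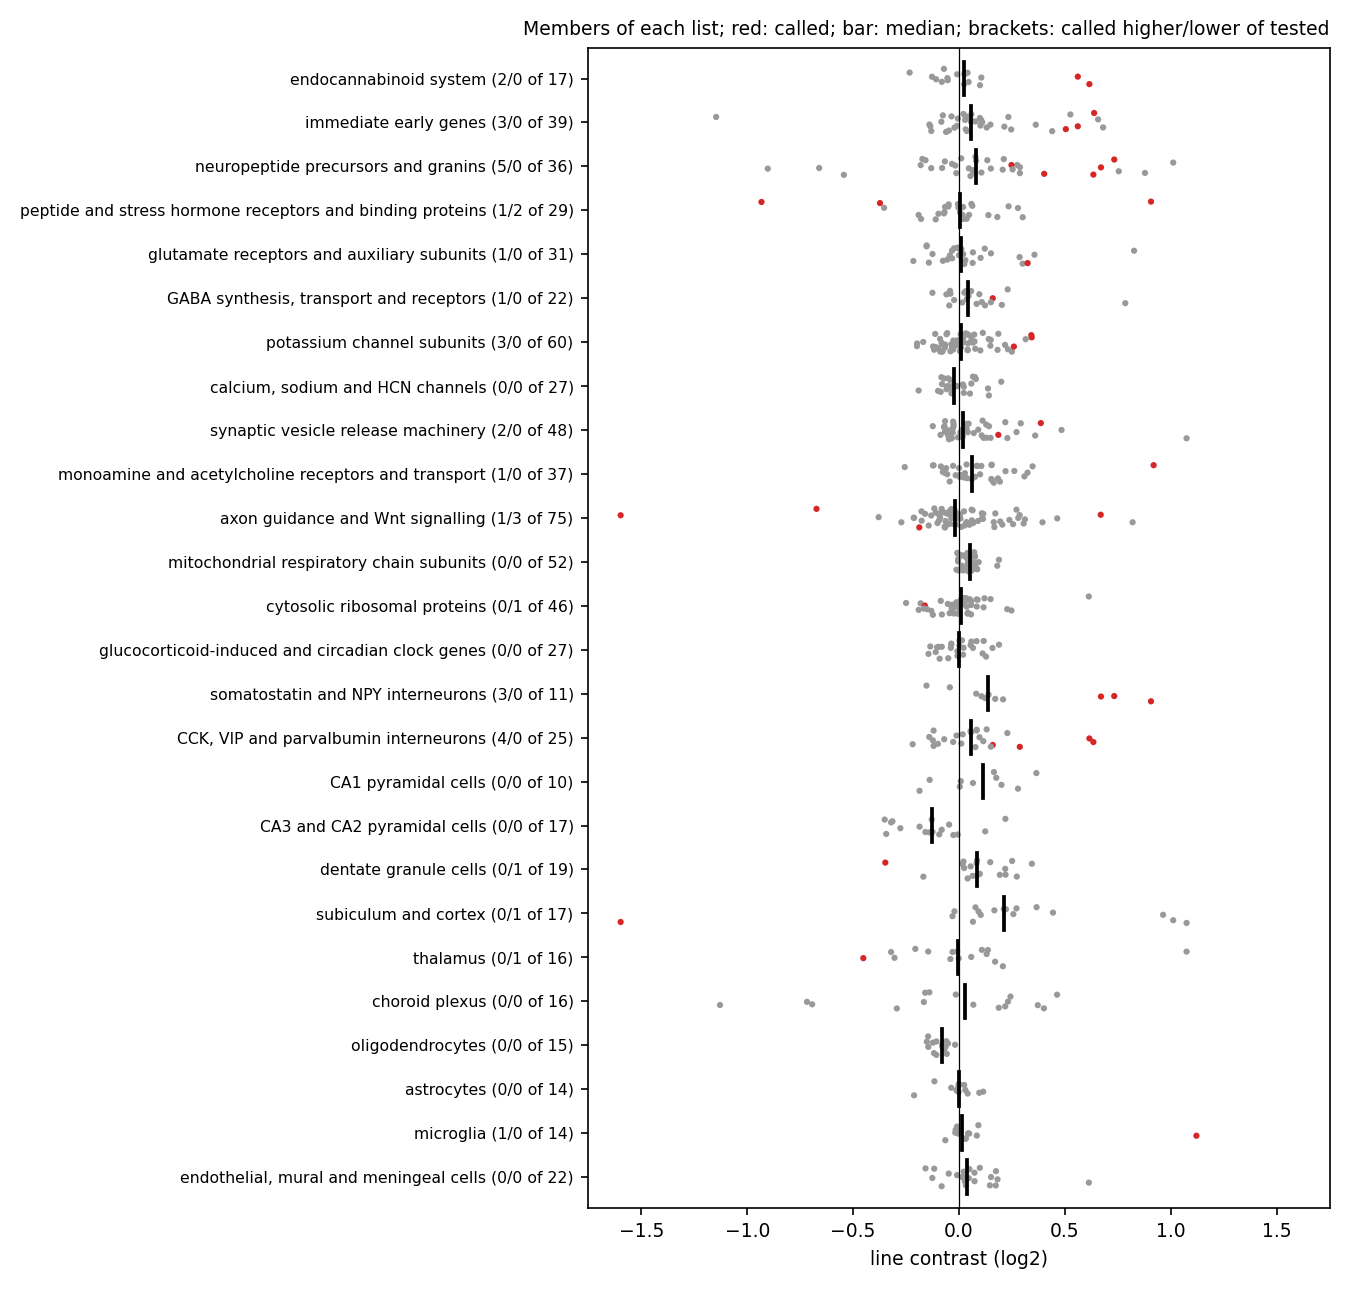
Line contrast (log2) of the members of lists of pathways and cell type markers, with 1 point per gene, called genes in red and the median of each list as a bar. Neuropeptide precursors and markers of somatostatin and NPY interneurons hold called genes on the right, and all 15 oligodendrocyte markers lie left of 0 without a called gene.

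Markers of hippocampal regions and of other cells leaned to one side of the line contrast, without calls in most lists. Over all genes tested, 7475 values were positive and 8095 negative. Of 17 CA3 and CA2 markers 15 were negative (median −0.129), 8 of 10 CA1 markers were positive (median 0.115), and 14 of 17 subiculum and cortex markers were positive (median 0.211). The last were led by the vesicular glutamate transporter *Slc17a6* (1.07, adjusted p = 0.199) and *Nts*, the precursor of neurotensin (1.01, adjusted p = 0.488), which is also the ligand of *Ntsr1*. *Rspo1*, a member of the same list, went the other way. The summed subiculum and cortex markers ran from 422.8 to 546.1 CPM in Glu-CB1-WT, 444.9 to 581.6 CPM in Glu-CB1-KO, 468.2 to 612.8 CPM in GABA-CB1-WT and 413.1 to 561.4 CPM in GABA-CB1-KO mice. All 15 oligodendrocyte markers were negative (median −0.0796), none of them called. With sums of such markers as covariates 93 genes were called, 69 higher and 24 lower, of which 57 were among the 114. *Crhbp*, *Sst*, *Npy*, *Pdlim1*, *Blnk*, *Ntsr1*, *Rspo1* and *Wnt11* kept their calls, whereas 20 of the 51 called genes under the naming rule did not. These were *Npy2r*, *Lgr5*, *Tac1*, *Kcnip1*, *Kcnn2*, *Gad1*, *Cnih3*, *Sptb*, *Sla2*, *Frem3*, *Cldn22*, *Sema3a*, *Plxna1*, *Rpl22*, *Pvalb*, *Il16*, *Itpkb*, *Lgals1*, *Gfra1* and *Slc27a2*. Without the 14 libraries set apart the calls of *Sla2*, *Frem3*, *Ackr2*, *Cldn22*, *Sptb*, *Tac1*, *Vgf*, *Npy2r*, *Cnih3*, *Gad1*, *Kcnip3*, *Kcnip1*, *Sema3a*, *Plxna1*, *Rpl22*, *Il16*, *Lgals1*, *Gfra1*, *Slc27a2* and *Ap1s1* were lost, and with the animal number range as covariate those of *Sla2*, *Sptb*, *Tac1*, *Cnih3*, *Gad1*, *Vamp1*, *Plxna1*, *Il16*, *Itpkb*, *Lgals1*, *Gfra1* and *Ap1s1*. The part of the makeup of the tissue samples in these results was not tested beyond this.

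Of 25 markers of cholecystokinin, vasoactive intestinal peptide and parvalbumin interneurons, *Cnr1*, *Tac1*, *Gad1* and *Pvalb* had a line contrast called higher. *Cnr1* is the deleted gene and fell in both lines, so its call is not a result about these cells. The list had 16 positive and 9 negative values, among the latter *Ndnf* (−0.22) and *Htr3a* (−0.12), and a median of 0.0569. Over all genes tested, 0.411% were called higher and 7475 of 15570 values were positive. *Pvalb* encodes a calcium buffer of fast-spiking cells (0.29, standard error 0.07, adjusted p = 0.0449). *Pvalb* lost its call in 28 fits without 1 library (highest adjusted p = 0.0848, without Glu-CB1-WT basal replicate 4). Among 19 dentate granule cell markers *Il16*, a secreted cytokine, was lower (−0.35, adjusted p = 0.0332) and 17 values were positive (median 0.0836). Its call was lost in 8 fits (highest adjusted p = 0.0774, without Glu-CB1-WT open field replicate 4). The thalamic list had *Plekhg1* lower (−0.45, adjusted p = 0.00174) among 16 genes (median −0.00519). None of 16 choroid plexus, 14 astrocyte and 22 endothelial, mural and meningeal markers was called, and of the blood list only *Alas2* was expressed highly enough for a test (−0.06, adjusted p = 0.987).

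The line contrast was also taken in each state. In the basal state 33 genes were called (0.212%, 23 higher and 10 lower), and after open field exposure 53 (0.34%, 29 higher and 24 lower). Of the 114 genes, 14 were called in both states, 14 in the basal state but not after open field exposure, 23 after open field exposure but not in the basal state, and 63 with the states averaged alone. All 114 had the same sign in both states, which selection on the average favours, whereas 44.9% of all genes tested did. Over all genes tested the contrasts of the states had r = −0.104 (rho −0.0725). The change of the line contrast between states was called for 0 genes in edgeR's test (0%), with 1751 genes at an unadjusted p under 0.05, and for 2 genes with DESeq2. So *Ntsr1*, at −0.84 and −1.02, and *Wnt11*, at −0.84 and −1.74 in the 2 states, were not shown to differ between states, and neither was *Blnk*, at 1.47 and 0.77.

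**Figure D5:**
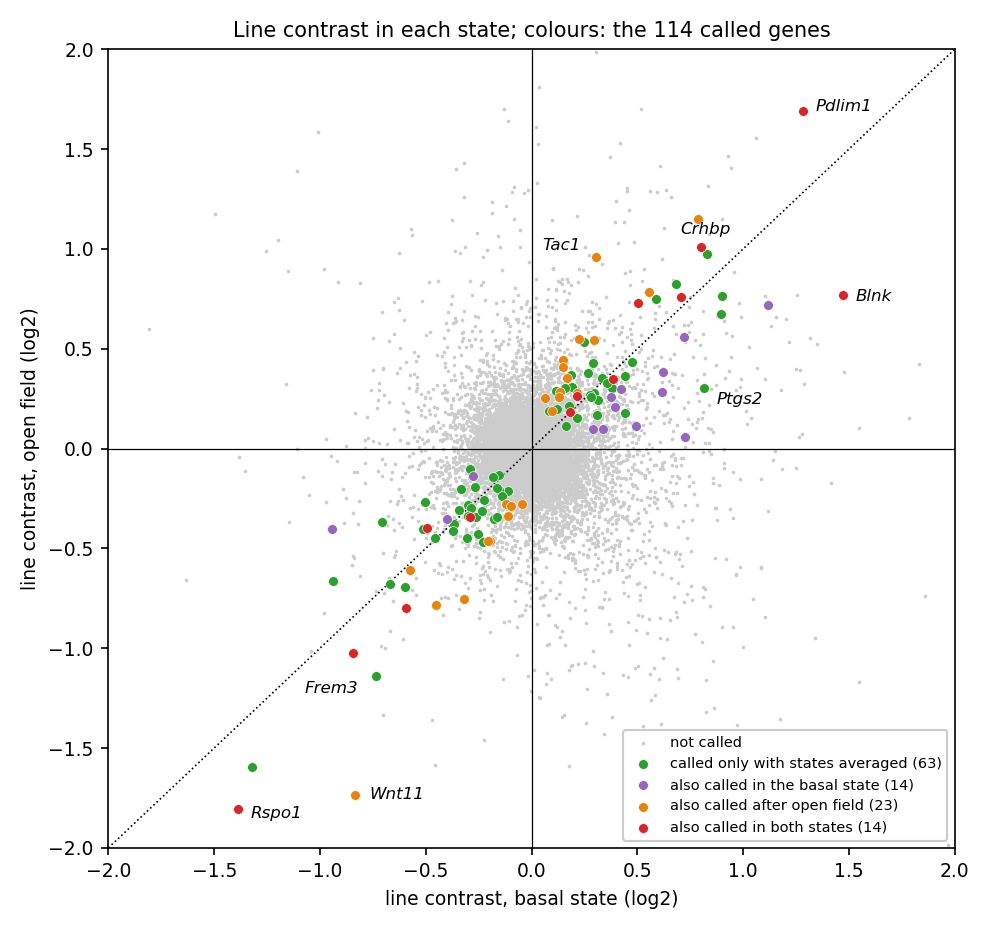
Line contrast after open field exposure (vertical axis) against that in the basal state (horizontal axis), both log2, with 1 point per gene and colours for the 114 genes by the states in which they were called. Genes called in the averaged contrast lie in the lower left and upper right fields, with *Pdlim1* far from 0 in both states, and 25 genes outside the axes, among them *Gm3279*, are not drawn.

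Within single comparisons, KO libraries lay entirely above or below their controls for 0.193% of genes tested in the basal Glu-CB1 line and 0.726% after open field exposure, and for 0.687% and 0.97% in the GABA-CB1 line. Of the 114 genes this held for 11 (4 above and 7 below their controls) and 28 (13 and 15) in the Glu-CB1 line and for 24 (5 and 19) and 25 (8 and 17) in the GABA-CB1 line, in values that the contrast itself used. In CB1-WT mice alone the lines differed for 0 genes in edgeR's test (0%), with 571 of 15570 at an unadjusted p under 0.05. Of the 114 genes, 17 were among these 571, a larger share, which selection on the contrast favours because control levels are part of it. On the log2 scale, GABA-CB1 minus Glu-CB1 controls gave 0.19 for *Crhbp*, 0.19 for *Sst*, 0.16 for *Npy* and 0.03 for *Pdlim1*. The difference was 0.06 for *Blnk*, −0.02 for *Ntsr1*, −0.12 for *Rspo1* and −0.24 for *Wnt11*.

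The called genes were spread over the genome, with 13 of 929 genes tested (1.40%) on chromosome 1 and 10 of 773 (1.29%) on chromosome 6. All 6 on chromosome 19, all 7 on chromosome 5 and all 6 on chromosome 15 were higher, where 64 of the 114 were higher over the genome. On chromosome 8, 7 of 9 were lower, and on chromosome 17 all 3. Besides *Pdlim1* and *Blnk*, called neighbours less than 1 Mb apart that had the same sign included *Vgf* and *Ap1s1*, an adaptor subunit of clathrin coats (0.24, adjusted p = 0.0449, 1643 bp apart), *Stard5*, a lipid transfer protein (−0.38, adjusted p = 0.000299), and *Il16* (735 bp apart), and the calpain *Capn5* (−0.29, adjusted p = 0.00101) and *Wnt11* (656838 bp apart). *Gfra1*, a receptor of glial cell line-derived neurotrophic factor (0.28, adjusted p = 0.0185), lay 805480 bp from *Slc18a2*, and lost its call in 4 of 11 alternatives. Called neighbours of opposite sign were *Itpkb* and *Cnih3*, *Slc27a2* and *Kcnip3*, and *Neurod6* and *Gm3279*. Neighbours were not counted over all genes tested. *Ap1s1* lost its call in 26 of 48 fits without 1 library (adjusted p up to 0.0747, reached without GABA-CB1-KO open field replicate 3).

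Remaining genes that the naming rule gave were *Bmp3*, a bone morphogenetic protein, which rose in Glu-CB1-KO mice by 0.67 (adjusted p = 0.000659) and had a line contrast of 0.97 (standard error 0.17, adjusted p = 0.000394). It had 1.83, 2.21, 2.25, 2.47 and 2.94 CPM in basal Glu-CB1-WT against 2.57 to 5.77 CPM (median 3.41) in Glu-CB1-KO mice, and all KO libraries (2.96 to 3.99 CPM) were above the controls (1.74 to 2.46 CPM) after open field exposure. *Lipg*, the endothelial lipase, had a contrast of 0.90 (standard error 0.17, adjusted p = 0.00134) with a KO effect of −0.59 in the GABA-CB1 line (adjusted p = 0.00734). *Frem3*, an extracellular matrix gene, had −0.94 (adjusted p = 0.0253) and lost its call in 3 fits (adjusted p = 0.0530 to 0.0549), without Glu-CB1-WT basal replicate 1, Glu-CB1-WT open field replicate 4 or GABA-CB1-KO open field replicate 3. *Cldn22*, a claudin, had −0.65 (adjusted p = 0.0150). *Rpl22*, the only called one of 46 ribosomal protein genes, had −0.16 (adjusted p = 0.00873). *Itpkb*, an inositol trisphosphate kinase, had −0.27 (adjusted p = 0.0261), *Slc27a2*, a fatty acid transporter, −0.29 (adjusted p = 0.0278) and *Lgals1*, galectin-1, 0.39 (adjusted p = 0.0402). Their calls were lost in 2, 6 and 17 fits without 1 library, with the highest adjusted p of 0.0524 without Glu-CB1-WT basal replicate 2, 0.0637 without Glu-CB1-WT basal replicate 1 and 0.0747 without GABA-CB1-KO open field replicate 3. The chemokine scavenger *Ackr2* (−0.67, adjusted p = 0.0494) lost its call in 37 of the 48 fits (adjusted p up to 0.101, reached without GABA-CB1-KO open field replicate 2), and the adaptor *Sla2* (0.78, adjusted p = 0.0463) in 33 (highest adjusted p = 0.0860, without Glu-CB1-WT open field replicate 4).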

How the data were processed

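RNA of microdissected Cornu Ammonis tissue, from which the dentate gyrus had been removed, was amplified by the authors with a single primer isothermal method, sequenced, aligned to mm10 with STAR 2.6.0a and counted per gene with the reverse-strand setting of featureCounts 1.6.2, with FastQC and MultiQC 1.8 for quality. The authors deposited raw counts of 24421 genes in 48 libraries, without normalization, and 3596 of these genes were not counted in any library. Group membership was taken from the sample labels.

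All 48 libraries were fitted together in R 4.3.3 with edgeR 4.0.16, with 1 mean per group, TMM scaling and genes filtered by filterByExpr, which left 15570 genes. The line contrast, the KO effects and the contrasts within states came from this fit, by the quasi-likelihood test with Benjamini-Hochberg adjustment over all genes tested and a threshold of 0.05. Standard errors were derived from the F statistic. DESeq2 1.42.0 was run as an alternative, besides other scalings, filters, covariates and fits without 1 library. The p-values measure the spread between the animals sampled. No within-group pair of the 123 agreed within sampling noise (lowest chi-square per degree of freedom 2.93). The scripts were tested on simulated data. Coordinates and promoter sequences came from RefSeq tables of GRCm38.p6, the assembly behind mm10, matched by symbol.

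Named genes were *Cnr1*, *Neurod6*, the 8 highest and 8 lowest called contrasts with a mean of at least 1 CPM in at least 1 group, up to 15 dichotomic genes by smallest p, genes that the study names, up to 4 called members of each list, and called genes within 1 Mb of these. Members and gene lists were chosen with earlier results of these data known, so no list is independent evidence. Some genes that meet the naming rule are not reported here.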

Additional observations from a re-analysis of the deposited data

Results flagged for a closer look

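The KO effect differed between the lines for 114 genes by the test of the difference itself, which is the comparison reported above. Within the groups, 456 sets of 5 to 7 values of named genes were searched for a library far from the rest by Dixon's criterion, which chance meets in about 1 of 20 groups. It was met 32 times (7.02%), 24 times by a high and 8 times by a low library.

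GABA-CB1-KO open field replicate 1 was the highest of its group for *Kcnip3* (100.6 CPM, group median 71.6), *Ap1s1* (221 CPM, median 152) and *Slc18a2* (4.68 CPM, median 2.28). In the same group replicate 3 was high for *Cldn22* (2.25 CPM) and replicate 5 for *Sptb* (353 CPM, median 344). In basal GABA-CB1-KO mice *Grin2b* was low in replicate 2 (31 CPM, median 119), the only library of that group among the 14 set apart. *Rspo1* was high in replicate 6 (2.57 CPM) and *Sema3a* in replicate 3 (3.28 CPM) of the same mice. Replicate 5 of that group was high for *Fosb* (9.07 CPM, median 2.79) and *Bdnf* (52.8 CPM, median 39.4).

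In Glu-CB1-WT mice, basal replicate 3 was high for *Sst* (134 CPM, median 94.4) and low for *Bdnf* (43.2 CPM), and replicate 2 was low for *Sema3a* (2.03 CPM). With the open field, replicate 5 was low for *Bdnf* (44.5 CPM), replicate 3 high for *Gadd45g* (7.64 CPM) and replicate 4 high for *Neurod6* (400.0 CPM). In basal Glu-CB1-KO mice, *Fosb* was high in replicate 5 (8.11 CPM), *Itpkb* in replicate 6 (37.2 CPM) and *Rpl22* in replicate 2 (92.6 CPM), while *Vamp1* was low in replicate 2 (143 CPM). After open field exposure, replicate 5 was high for *Gad1* (423 CPM), *Kcnn2* (84.8 CPM) and *Neurod6* (238 CPM), and replicate 3 for *Ntsr1* (4.03 CPM).

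In basal GABA-CB1-WT mice, replicate 2 was high for *Arc* (119.5 CPM) and *Bmp3* (2.96 CPM), replicate 4 was high for *Mylk* (42.2 CPM), and *Ier5* (18.8 CPM, replicate 1) and *Ntsr1* (3.32 CPM, replicate 3) were low. With the open field, replicate 1 was high for *Lgals1* (10.3 CPM) and *Lgr5* (4.20 CPM), and replicate 7 was low for *Tac1* (4.81 CPM).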

How the results depend on the processing

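The line contrast kept the call of 51, 51 and 51 of 51 named genes with RLE size factors, DESeq2 and the first residual component as covariate, of 42 without the filter, of 39 with the range of animal numbers as covariate, of 31 without the 14 libraries set apart and of 1, *Cnr1*, in those 14 alone, where groups hold 1 to 3 libraries. The 34 and the 14 libraries, the choroid plexus omission and the marker covariates were chosen after the data were seen.

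DESeq2 called 178 genes for the line contrast (114 by edgeR), 107 for the Glu-CB1 line (58), 124 for the GABA-CB1 line (73), 63 in the basal state (33), 111 after open field exposure (53), 2 for the change between states (0) and 18 dichotomic genes (11). With the first residual component as covariate, the counts were 91 in the Glu-CB1 line, 119 in the GABA-CB1 line, 88 in the basal state, 96 after open field exposure and 14 for the change between states. The 34 libraries gave 53, 20, 19 and 30 genes for the line contrast, the Glu-CB1 line, the basal state and open field exposure and 5 dichotomic genes, and the 14 libraries gave 2, 4, 2 and 1, with 3 in the GABA-CB1 line and 0 dichotomic genes. Without the 3 libraries of high choroid plexus sum, 110 genes were called in the Glu-CB1 line. The count after open field exposure was 27 without the filter, 87 with that state fitted alone and 25 with marker covariates. The cause of these shifts was not tested.

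Same-numbered KO and CB1-WT libraries were not paired (r of their deviations −0.335 to 0.317 in 21 pairs, 4 over 0.1, and 4 of 21 KO libraries correlated best with their own number). With the replicate number as a block, 83 genes were called for the line contrast, 75 of them shared, 48 and 49 in the Glu-CB1 and GABA-CB1 lines, 30 in the basal state, 21 after open field exposure and 8 dichotomic genes.

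With 1 library left out, the counts ran from 74 to 186 for the line contrast, 39 to 104 in the Glu-CB1 line, 43 to 153 in the GABA-CB1 line, 21 to 54 in the basal state, 19 to 79 after open field exposure, 0 to 1 for the change between states and 6 to 20 for dichotomic genes. GABA-CB1-KO open field replicate 1, when left out, gave the highest counts of the line contrast, the GABA-CB1 line, the basal state and the dichotomic genes, and replicate 3 of that group gave 74 and 43. The Glu-CB1 line had 101 without Glu-CB1-WT basal replicate 3 and 104 without Glu-CB1-KO basal replicate 6, and the basal state had 21 without GABA-CB1-WT basal replicate 4. After open field exposure, 13 libraries of that state each brought the count to between 19 and 33 when left out. These were Glu-CB1-WT replicates 3, 4 and 5, Glu-CB1-KO replicates 1, 2, 3 and 5, GABA-CB1-WT replicates 2, 4, 5 and 6 and GABA-CB1-KO replicates 2 and 4.

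Signs turned only for genes not called. *Nr4a2* went to −0.067 in the 34 libraries and −0.14 with marker covariates, and *Grin2b* to 0.20 with the animal number range and 0.14 in the 14 libraries. *Arc* went to 0.061 with the block, 0.12 with the animal number range, 0.13 without high choroid plexus sums and 0.82 in the 14 libraries, and ran from −0.077 to 0.12 with 1 library left out. Depth of 25892654 reads or more limits mainly genes near 1 CPM, such as *Rspo1* and *Wnt11*.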
